A study of Arabidopsis thaliana with 6 samples.

Results

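Arabidopsis thaliana plants that carried the camta3-2 allele were compared with wild-type plants, both 3 weeks old, on Affymetrix oligonucleotide arrays. Each genotype had 2 arrays, which the labels call biological replicates, so the comparison rested on 4 of the 6 arrays of the study. The other 2 arrays held camta3-1, another mutant allele of the same gene at the same age. They entered the fit to share the estimate of the spread between replicates. They also served for a direct test of whether a value differed between the mutant groups. In this design an effect of an allele cannot be told apart from other differences between the groups of plants, as in seed stock or growth. No treatment is stated for any group, and the sources used here do not give the tissue, the accession or the nature of the mutations. All 22746 probe sets that were not array controls were tested, each as a log2 expression value.

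CAMTA3 is a calmodulin-binding transcription activator, a class of plant proteins that bind DNA at a short CGCG-type element and calmodulin through dedicated motifs. In Arabidopsis leaves it is best known as a brake on salicylic acid-dependent defence: plants without it express defence genes in the absence of a pathogen. Salicylic acid defence runs from receptor kinases at the cell surface and nucleotide-binding receptors inside the cell, through calcium signals and the EDS1 family of lipase-like proteins, to secreted enzymes and antimicrobial proteins.

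The leaf gene RCA, which encodes the activase of Rubisco, lay between 13.83 and 14.00 on the 4 arrays, near the top of the scale. The root hair gene EXPA7 lay between 4.53 and 4.63, and PYK10, a root and hypocotyl glucosidase gene, between 5.59 and 6.73. The only measured guard cell marker, FMA, was at 7.15 and 7.00 in camta3-2 and 7.41 and 7.62 in wild type (limma, adjusted p = 0.315). Array medians ran from 6.18 in replicate 2 of camta3-2 to 6.25 in its replicate 1, with both wild-type arrays between them. Across probe sets the correlation was 0.992 between the camta3-2 replicates, 0.995 between the wild-type replicates and 0.987 to 0.989 between the genotypes. The 3' minus 5' difference of the ubiquitin control was 1.19 and 1.20 in camta3-2, the lowest of all arrays, against 1.26 and 1.33 in wild type. For the actin control the genotypes overlapped, at 3.55 and 3.51 in camta3-2 against 3.39 and 3.52 in wild type. They also overlapped for the GAPDH control, at 0.29 and 0.14 against 0.17 and 0.46. The transcript of CAMTA3 itself was not analysed here, because the annotation pairs no probe set with it, so whether the labelled mutants lack it was not checked. In whole-tissue RNA, more cells of a type and more RNA per cell cannot be told apart.

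Most probe sets that passed the test in camta3-2 were higher than in wild type. Of 22746 probe sets, 149 were higher (0.655%) and 18 were lower (0.0791%) at an adjusted p under 0.05 in limma, together 0.734%. Among them 122 rose and 7 fell by at least 1 on the log2 scale, and the smallest change that passed was 0.65. All 149 had both camta3-2 arrays above both wild-type arrays, which held for 13.4% of all probe sets, and all 18 had both below, which held for 28.9%. Genes that rose were of ordinary abundance, with a median wild-type level of 6.23 against 6.22 for all probe sets. At an unadjusted p under 0.05 the balance was the reverse, with 1044 higher and 1498 lower. The median of all log2 fold changes was -0.06 and the median standard error of a fold change was 0.13. The annotation paired 54 of the 149 and 16 of the 18 with 1 gene, so 70 changed genes could be named out of 13355 represented (0.524%), and 97 changed probe sets could not. Among the 149 probe sets that rose, replicate 2 of wild type was above replicate 1 in 111 (74.5%, against 51.48% of all probe sets), and the median distance between the wild-type replicates was 0.24, against 0.13 over all.

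With 2 arrays a genotype, these calls rested on every array. The count of 167 passing probe sets became 11 without replicate 1 of camta3-2, 55 without its replicate 2, 5 without replicate 1 of wild type and 42 without its replicate 2, and 270 without either camta3-1 array. The 36 changed genes and unnamed probe sets that the naming rule selected all kept their direction in each of these fits. That was fixed in advance, because their camta3-2 arrays did not overlap the wild-type arrays. Leaving out a camta3-1 array does not alter these fold changes. An unmoderated test of the same model called 0 probe sets, with 2042 at an unadjusted p under 0.05.

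**Figure D1:**
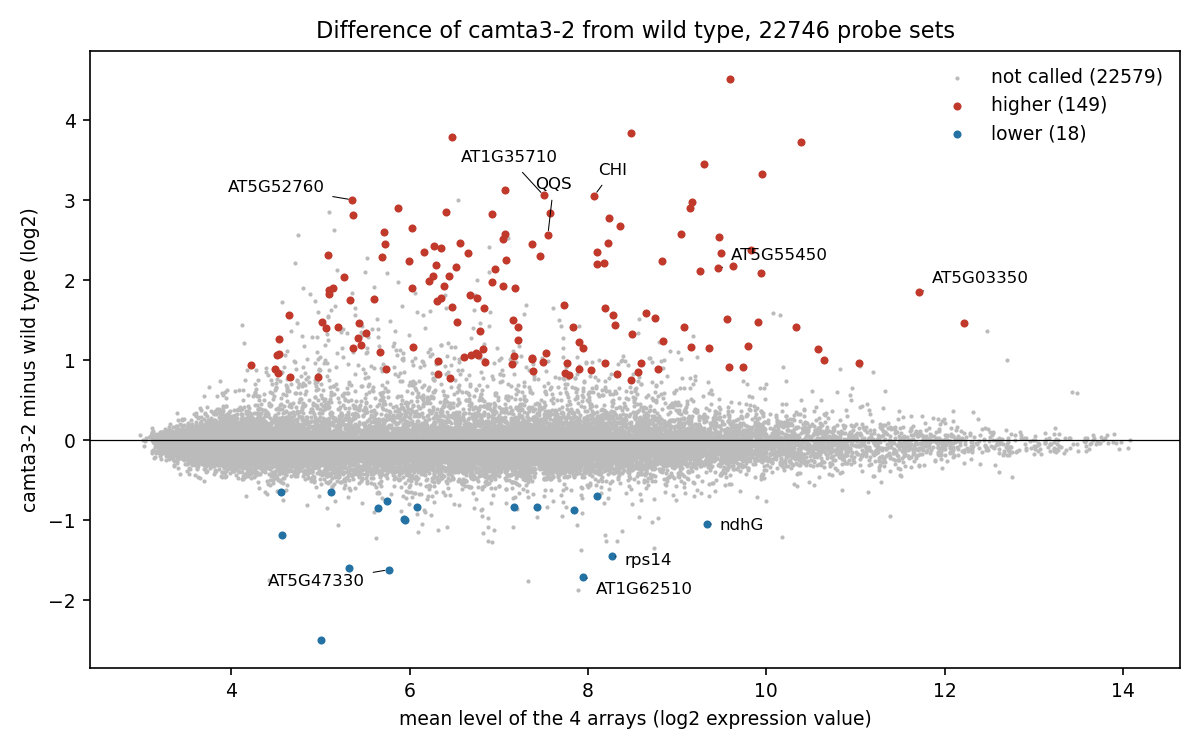
Log2 fold change of camta3-2 against wild type (vertical axis) over the mean log2 level of the 4 arrays (horizontal axis) for 22746 probe sets, with the 149 that rose in red and the 18 that fell in blue. Rises reach past 4 and lie across the range of levels, while all falls but 1 are smaller than 2.

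Receptor kinases of the cell surface were among the genes that rose. AT1G35710, a leucine-rich repeat receptor kinase gene related to MIK2, was at 8.97 and 9.10 in the camta3-2 arrays and at 5.39 and 6.56 in the wild-type arrays. The groups lay far apart although the wild-type arrays differed by more than 1. Its log2 fold change of 3.06 (standard error 0.36, 8.33-fold, limma adjusted p = 0.0164) was the largest among named genes. MIK2 itself, AT4G08850, the receptor of the secreted SCOOP peptides, was at 9.14 and 8.97 in camta3-2 and at 7.44 and 7.54 in wild type. The replicates were close in both groups, and the log2 fold change was 1.57 (standard error 0.18, adjusted p = 0.0149). AT5G59670, which encodes a receptor kinase with a malectin-like domain, had levels of 7.94 and 7.66 in camta3-2 and 5.12 and 5.56 in wild type. Its log2 fold change was 2.46 (standard error 0.23, adjusted p = 0.00789). Its neighbour in the genome, AT5G59680, was at 6.29 and 5.82 against 4.89 and 4.67, a difference of 1.28 that did not pass (adjusted p = 0.0518).

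The lists that hold these kinases had few genes that passed. Of 33 measured malectin-like leucine-rich repeat kinase genes 1 rose and none fell, and the family's median log2 fold change was -0.04 against -0.06 over all represented genes, of which 0.404% rose and 0.12% fell. Of 3 measured genes from a list of 14 pattern receptors and their partners, MIK2 rose, while EFR, the receptor for a bacterial elongation factor, and BIK1, a kinase that acts with several receptors, had differences of 0.37 and 0.31 (adjusted p = 0.351 and 0.516). All 3 had both camta3-2 arrays above both wild-type arrays, which held for 12.2% of represented genes, and their median was 0.37. A further 4 kinase genes passed and were picked after their values had been seen. AT5G39020, a relative of FERONIA, rose by 1.35, the S-domain kinase gene AT1G11330 by 1.42 and the wall-associated kinase-like gene AT1G69730 by 1.22. PCRK1 (AT3G09830), a cytoplasmic kinase that works with pattern receptors, rose by 1.08. In all 4, both camta3-2 arrays lay above both wild-type arrays, as in every probe set that rose.

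Few genes on the lists of salicylic acid regulators and intracellular receptors passed, and all of those rose. AT3G48080, one of the tandem EDS1 copies, was at 6.48 and 6.09 in camta3-2 and at 4.09 and 4.40 in wild type. Its log2 fold change was 2.04 (standard error 0.24, 4.11-fold, adjusted p = 0.0162), and the near-identical neighbouring copy makes its identity less certain. It was 1 of 2 measured genes from a list of 13 salicylic acid regulators. The other, SAG101, a partner of EDS1, differed by 0.28 (adjusted p = 0.694). The lectin gene AT5G03350, known to be induced by salicylic acid, was among the most abundant of the genes that rose, at 12.78 and 12.51 in camta3-2 and at 10.60 and 10.99 in wild type. Its log2 fold change was 1.85 (standard error 0.19, adjusted p = 0.0113). Of 91 measured genes with a TIR domain, the signalling part of one class of intracellular receptors, AT3G04210 rose by 1.45 and AT5G11250 by 0.83, where 0.404% of represented genes rose. The median of the 91 was 0.04 against -0.06 over represented genes, and 34 of them had both camta3-2 arrays above both wild-type arrays, which held for 12.2% of represented genes.

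RING1, a ubiquitin ligase gene with a part in plant cell death, was at 10.40 and 10.23 in camta3-2 and at 8.14 and 8.26 in wild type. Both pairs were tight, and the log2 rise was 2.12 (standard error 0.23, 4.34-fold, adjusted p = 0.0119). The U-box ligase genes PUB22, PUB23 and PUB24, negative regulators of immunity, did not pass, with differences of 0.07, -0.27 and 1.11. PUB24, at 6.17 and 5.97 against 4.95 and 4.98, had an adjusted p of 0.0750. Of the ankyrin-repeat membrane proteins, the family of the cell death regulator ACD6, 1 of 18 measured genes rose, AT1G10340, by 1.73. Over all represented genes 0.404% rose. AT4G03450 of the same family stood at 6.90 and 6.81 against 4.91 and 4.85, a difference of 1.97 with an adjusted p of 0.0606.

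**Figure D2:**
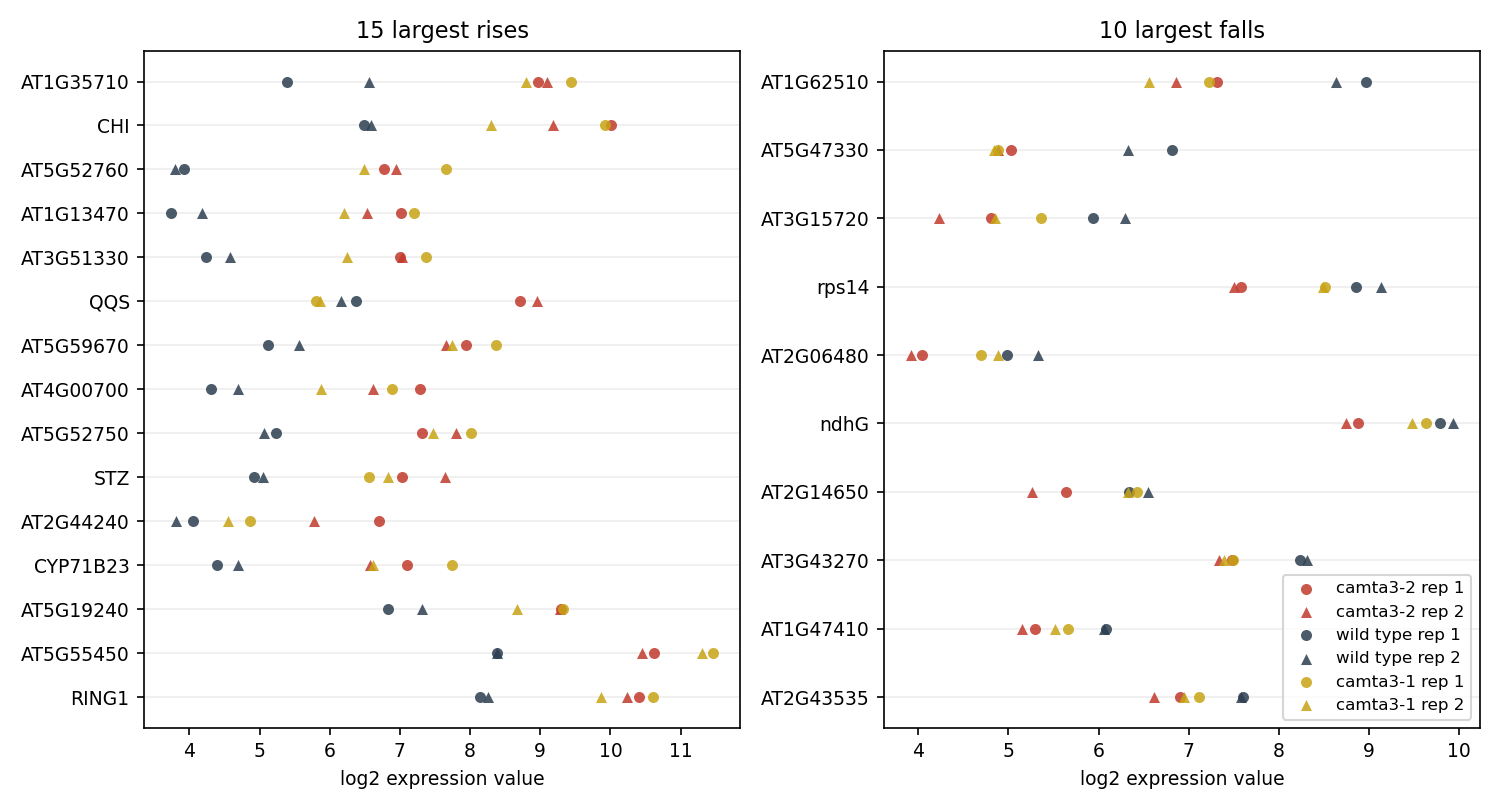
Log2 expression values of each array for the 15 largest rises and the 10 largest falls among named genes, with camta3-2, wild type and camta3-1 drawn as separate symbols. In every gene the camta3-2 arrays are separated from the wild-type arrays, as the rule that chose these genes required. In QQS the camta3-1 arrays lie on the other side of wild type.

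Secreted and metabolic enzymes formed another set of single large rises. CHI, a chitinase gene whose product cuts the chitin of fungal walls, was at 10.01 and 9.19 in camta3-2 and at 6.50 and 6.59 in wild type. The camta3-2 arrays differed from each other by 0.83, far less than the distance between genotypes. The log2 fold change was 3.06 (standard error 0.49, 8.32-fold, adjusted p = 0.0452), which did not pass with a trended and robust prior (adjusted p = 0.248). CHI was 1 of 15 measured chitinase genes to pass, where 0.524% of represented genes passed. The next, AT4G01700, was at 7.90 and 7.38 against 5.52 and 6.14 (difference 1.81, adjusted p = 0.0622).

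AT3G51330, an aspartyl protease gene, was at 7.00 and 7.03 in camta3-2 and at 4.24 and 4.58 in wild type, a rise of 2.60 (standard error 0.32, adjusted p = 0.0181). Its chromosomal relatives AT3G51350 and AT3G51360 had differences of 0.33 and -0.02, and the latter turned to 0.03 under cyclic loess scaling. The cytochrome P450 gene CYP71B23 rose by 2.29, as 1 of 18 measured genes of the CYP71B subfamily, whose median was 0.04. Of all represented genes 0.404% rose and 0.12% fell. AT5G55450, a lipid-transfer protein gene, had the tightest groups of the large rises, at 10.62 and 10.45 in camta3-2 and at 8.39 and 8.38 in wild type. Its rise of 2.15 (standard error 0.12, 4.44-fold, adjusted p = 0.00114) had the second smallest adjusted p among the named rises, after QQS. Among the 24 measured lipid-transfer genes it was the only one to rise, and 1 fell.

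AT1G13470 and AT5G19240 completed the 15 largest rises. AT1G13470, of unknown function with a DUF1262 domain, was at 7.01 and 6.54 in camta3-2 and at 3.75 and 4.18 in wild type and rose by 2.81 (standard error 0.32, adjusted p = 0.0149). AT5G19240, a predicted membrane-anchored glycoprotein gene, was at 9.30 and 9.28 against 6.83 and 7.32 and rose by 2.22 (standard error 0.24, adjusted p = 0.0119). In both genes the wild-type arrays were further below than the replicates were apart.

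Further enzymes and transporters that passed were picked after their values had been seen. SUFE2, an activator of cysteine desulfurase in plastids, rose by 1.91, and the purple acid phosphatase gene AT1G13750 by 1.90. The major facilitator gene AT2G39210 rose by 1.98, and ENGase85A, which trims N-linked glycans, by 1.06. The pectate lyase-like gene AT3G07010 was near the low end of what passed, with a rise of 0.75. The families measured in depth without a single gene that passed were the SWEET sugar transporters (16 genes, median -0.14), the UDP-glycosyltransferases (51 genes, median -0.11), the expansins and xyloglucan enzymes (27 genes, median -0.06) and the trichome birefringence-like proteins (23 genes, median -0.09). Over all represented genes 0.524% passed and the median was -0.06. With that share, families of these sizes can lack a passing gene without being set apart from other genes.

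A tandem block of heavy-metal-associated domain genes on chromosome 5 held the only pair of adjacent measured genes that both changed, among 68 changed nuclear genes with a place in the gene order. AT5G52760 was at 6.77 and 6.95 in camta3-2 and at 3.92 and 3.79 in wild type, from near the bottom of the scale. Its log2 rise was 3.00 (standard error 0.33, 8.02-fold, adjusted p = 0.0127). AT5G52750 was at 7.31 and 7.80 against 5.24 and 5.06, a rise of 2.40 (standard error 0.22, adjusted p = 0.00774). The outer genes of the block did not pass. AT5G52740 was at 4.20 and 4.31 against 3.94 and 3.82, and AT5G52770 at 3.86 and 3.85 against 3.68 and 3.92, with differences of 0.38 and 0.05 (adjusted p = 0.553 and 0.912).

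None of 8 measured calmodulin and calmodulin-like genes from a list of 22 chosen by symbol passed, with differences from -0.27 to 0.56. Family members named only by locus can be missing from that list. None of 8 measured glutamate receptor-like channel genes passed either, the largest difference being 1.17 in GLR2.7 (adjusted p = 0.276). Over all represented genes 0.524% passed and 0.404% rose. Of 3 measured genes of the rapid wound and touch response, 1 rose. This was STZ, also called ZAT10, a zinc-finger repressor induced within minutes by wounding and stress, which was at 7.03 and 7.65 in camta3-2 and at 4.93 and 5.06 in wild type. Its log2 fold change was 2.35 (standard error 0.20, 5.10-fold, adjusted p = 0.00734). Picked after their values had been seen, the EF-hand genes AT2G41090, AT4G27280 and AT2G41410 rose by 1.47, 1.42 and 0.92. The calmodulin-binding IQM gene AT2G26190, picked in the same way, rose by 1.02. Named by locus alone, these genes are not on the calmodulin list, which does not cover the whole family. AT2G41090 was the most abundant of these, at 13.03 and 12.87 against 11.43 and 11.54. AT4G00700, with C2 domains of the kind that bind calcium and membranes, was at 7.28 and 6.62 against 4.31 and 4.69, a rise of 2.45 (standard error 0.35, adjusted p = 0.0322).

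None of the 3 measured members of the CAMTA family, from a list of 6, passed. AT3G16940 was at 7.48 and 7.03 in camta3-2 and at 7.46 and 7.42 in wild type, AT1G67310 at 7.38 and 7.05 against 7.18 and 7.08, and AT4G16150 at 6.63 and 6.45 against 6.34 and 6.66. The groups overlapped in all 3, with differences of -0.18, 0.08 and 0.04 (adjusted p from 0.730 to 0.944), and each changed sign when 1 of the arrays was left out. Of 7 measured WRKY factors, a family of defence regulators, none passed, where 0.524% of represented genes did. WRKY53, a senescence and defence regulator, came closest at 5.83 and 6.51 against 4.24 and 4.97, a difference of 1.56 with an adjusted p of 0.0870. The pipecolic acid pathway gene AT5G52810, which acts in systemic resistance, was at 8.17 and 7.98 against 6.17 and 6.83 (difference 1.58, adjusted p = 0.129).

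The 3 measured jasmonate genes, from a list of 16, and the 3 measured cold genes, from a list of 12, were lower on average without passing. Of all represented genes 65.8% had a negative log2 fold change. THI2.1, a thionin gene of the jasmonate response, was at 5.29 and 4.73 in camta3-2 and at 6.57 and 5.89 in wild type, which did not overlap (difference -1.22, adjusted p = 0.111). The defensin gene PDF1.2 was at 6.64 and 6.05 against 6.03 and 8.54, so that the wild-type arrays spanned both camta3-2 values. PDF1.2b differed by -0.27. The cold-regulated genes COR15A, COR15B and COR47, targets of the CBF factors, had differences of -0.95, -0.62 and -0.38 (adjusted p from 0.234 to 0.648). In each of them replicate 2 of camta3-2 was the lowest of the 4 arrays compared, as for COR15A with 11.36 and 10.47 against 11.95 and 11.79. The differences of PDF1.2, PDF1.2b and COR47 changed sign when 1 of the arrays was left out.

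QQS differed between the camta3-2 and the camta3-1 arrays. Whether the allele or another difference between these groups of plants lies behind it cannot be told apart. QQS is an orphan gene, without a known relative outside Arabidopsis thaliana, whose product is known to shift the balance between starch and protein. It was at 8.72 and 8.95 in camta3-2, at 6.37 and 6.16 in wild type and at 5.81 and 5.86 in camta3-1. Both camta3-2 arrays were far above all 4 others, and the camta3-1 arrays were the lowest. In log2 terms QQS rose by 2.57 in camta3-2 against wild type (standard error 0.13, 95% interval 2.26 to 2.87, 5.93-fold, adjusted p = 0.000872). In camta3-1 the difference from wild type was -0.43 (adjusted p = 0.230). The direct difference between the alleles was 3.00 (95% interval 2.69 to 3.31, adjusted p = 0.000836). QQS was the only probe set of 22746 (0.0044%) to pass the test between alleles, where 1442 had an unadjusted p under 0.05. In that test 2 probe sets passed without replicate 1 of camta3-2 and 7 without its replicate 2, and 19 passed with only the 4 mutant arrays and the replicate number as a block. It stayed past the threshold in every fit that left out 1 array, with adjusted p from 0.000912 to 0.0339 against wild type and from 0.00499 to 0.0161 between alleles. It missed it without moderation (0.404 and 0.630).

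The genes around QQS on chromosome 3, looked at after its value had been seen, showed no such difference. The 3 measured genes on each side, from AT3G30660 to AT3G30750, had wild-type means between 3.27 and 4.18, near the bottom of the scale. Their log2 differences in camta3-2 ran from -0.09 to 0.04, with adjusted p from 0.859 to 0.991. All 6 were dim on every array, so a change in their transcripts may have gone unseen.

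**Figure D3:**
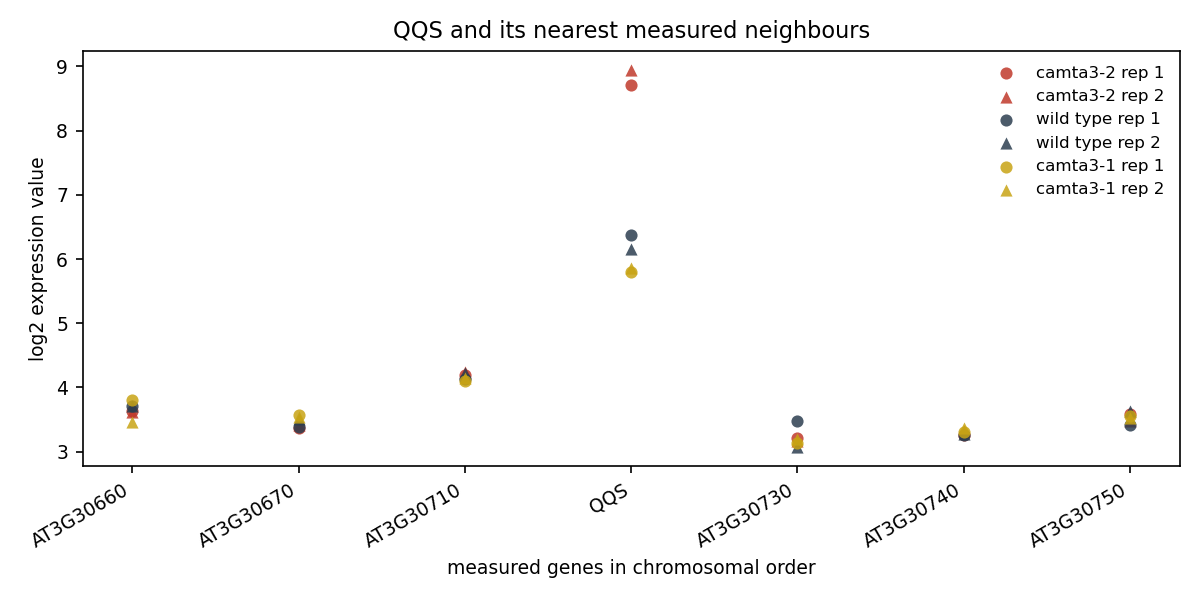
Log2 expression values of QQS and of the 3 nearest measured genes on each side along chromosome 3, in gene order and not to scale, for each array of camta3-2, wild type and camta3-1. QQS stands at 8.72 and 8.95 in camta3-2 against 5.81 to 6.37 on the other arrays, while the neighbours lie between 3.07 and 4.23 on all 6.

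For the other genes the alleles were not told apart. Both alleles were compared with the same wild-type arrays, so their fold changes share an error and likeness between them is no independent support. AT1G35710 had log2 fold changes of 3.06 in camta3-2 and 3.14 in camta3-1, AT5G52760 of 3.00 and 3.22, and RING1 of 2.12 and 2.04. Of the 167 probe sets that passed in camta3-2, 35 did not pass in camta3-1, where 1.08% of all passed, but for 34 of those the test between alleles was not passed either. AT2G44240, a gene of unknown function with a DUF239 domain, was such a case: it was at 6.71 and 5.78 in camta3-2, at 4.06 and 3.81 in wild type and at 4.87 and 4.54 in camta3-1. Its rise was 2.31 in camta3-2 (adjusted p = 0.0180) and its difference 0.77 in camta3-1, and the difference between the alleles had an adjusted p of 0.658. Among probe sets lower in camta3-2 than in camta3-1, the 3 with the smallest p were AT1G72060, rps14 and CYP71B22, with differences of -1.51, -0.96 and -0.82, and none passed (adjusted p = 0.597 for each). AT1G72060 was at 6.32 and 5.79 in camta3-2 against 4.89 and 5.03 in wild type, which did not pass in this allele (1.10, adjusted p = 0.0728).

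Few nuclear genes fell. AT1G62510, another lipid-transfer protein-like gene, was at 7.32 and 6.86 in camta3-2 and at 8.96 and 8.64 in wild type. Its log2 fold change was -1.71 (standard error 0.25, 3.28-fold, adjusted p = 0.0343). AT5G47330, a hydrolase gene of the palmitoyl-protein thioesterase type, was at 5.03 and 4.88 against 6.82 and 6.33 and fell by 1.62 (standard error 0.17, adjusted p = 0.0119). Wall-modifying genes followed: the polygalacturonase-type gene AT3G15720 fell by 1.59 and the pectin methylesterase gene AT3G43270 by 0.87. AT2G06480 and AT2G14650, annotated as pseudogenes, fell by 1.18 and 1.00. Their probe sets are of a kind that can match similar sequences, so their identity is uncertain. The 16 named genes that fell held 14 protein-coding genes and these 2, and all 54 that rose were protein coding. Among represented genes that were not called, 921 were annotated as pseudogenes and 12224 as protein coding. With so few falls, these 2 do not set them apart from other genes. AT1G47410 and AT2G43535 completed the 10 largest falls, at -0.85 and -0.84.

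The chloroplast genome supplied 2 of the falls. rps14, a protein of the small plastid ribosome subunit, was at 7.58 and 7.50 in camta3-2 and at 8.85 and 9.13 in wild type. The groups were clearly apart, and the log2 fold change was -1.45 (standard error 0.13, 2.73-fold lower, adjusted p = 0.00734). ndhG, a subunit of the NADH dehydrogenase-like complex of thylakoids, was at 8.88 and 8.75 against 9.79 and 9.93. It fell by 1.04 (standard error 0.12, adjusted p = 0.0155). The same genes differed from wild type by -0.49 and -0.30 in camta3-1 without passing, and the alleles did not differ by the direct test (adjusted p = 0.597 for both).

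These 2 were 2.90% of the 69 plastid-encoded genes measured, against 0.12% of represented genes that fell, and none of the 69 rose, against 0.404%. Of the 69, 63 had a negative log2 fold change (91.3%, against 65.8% of represented genes), 31 had both camta3-2 arrays below both wild-type arrays (44.9%, against 30%), and none had both above (against 12.2%). The median log2 fold change was -0.18 against -0.06 over represented genes, and it was -0.14 under cyclic loess and -0.16 under median centring. It was not a uniform shift. The 35 more abundant plastid genes had a median of -0.13 and the 34 less abundant ones, under a wild-type level of 11.32, a median of -0.48. All 4 measured genes of the plastid-encoded RNA polymerase were lower on average, with a median of -0.55. The 6 cytochrome b6f genes had a median of -0.43 and the 10 NADH dehydrogenase-like genes one of -0.42, while the 15 photosystem II genes had -0.12 and the 6 ATP synthase genes -0.12.

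Several plastid genes came near the threshold. petD of the cytochrome b6f complex was at 6.67 and 6.57 against 7.45 and 7.97 (difference -1.09, adjusted p = 0.0622). petN of the same complex was at 8.22 and 8.19 against 8.94 and 9.53 (difference -1.03, adjusted p = 0.0800), and the ribosomal gene rpl20 at 8.14 and 8.31 against 8.86 and 9.09 (difference -0.75, adjusted p = 0.0744). Of these, petN and rpl20 were picked after their values had been seen. petG, also of the cytochrome b6f complex, was at 8.28 and 8.22 against 8.81 and 9.03 (difference -0.67, limma adjusted p = 0.0743). In camta3-1 petG differed from wild type by 0.07. In all of these genes the lower wild-type array lay above both camta3-2 arrays. That adds little, because genes with a small p seldom overlap between groups. The replicates were not equal over the list: relative to the wild-type mean, its median was -0.15 and -0.31 in the camta3-2 arrays and -0.11 and 0.11 in the wild-type arrays. Without replicate 1 of camta3-2 the list's median was -0.31 and 0 genes passed as lower, and without replicate 2 the values were -0.15 and 1. Without replicate 1 of wild type they were -0.31 and 0, and without replicate 2 they were -0.10 and 1. The camta3-2 arrays also had the lowest ubiquitin 3' minus 5' differences, while those of actin and GAPDH overlapped between the genotypes. The part of the ubiquitin difference in these values was not tested. In camta3-1 the median of the same genes was -0.20, with the wild-type arrays shared. The 10 measured nuclear genes of the photosystems and Rubisco had a median of 0.00 in camta3-2, and none passed.

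**Figure D4:**
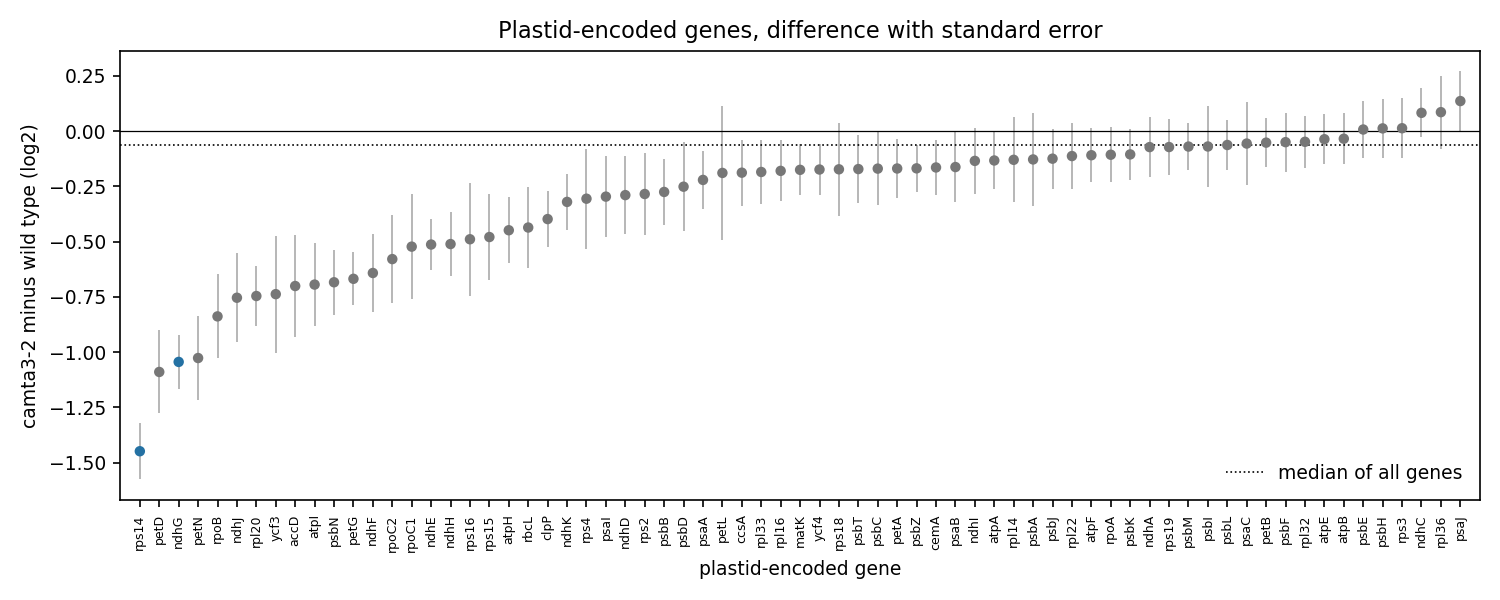
Log2 fold change of camta3-2 against wild type (vertical axis) of the 69 plastid-encoded genes (horizontal axis, ordered by that value), with bars for 1 standard error, the 2 genes that passed in blue and the median of all represented genes dotted. Of the points 63 lie below 0, from rps14 at -1.45 and petD at -1.09 upwards.

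Many of the largest changes belonged to probe sets that the annotation pairs with no single gene. Only 3 of the 10 probe sets that rose by at least 3 on the log2 scale could be named. Of all 149 that rose, 54 could be named, while the annotation paired 13513 of the 22746 probe sets tested with 1 gene. What is said here of gene families therefore covers the smaller part of the rises. The largest rise of all was that of 266385_at, which was at 11.97 and 11.74 in camta3-2 and at 6.97 and 7.71 in wild type, a log2 fold change of 4.52 (standard error 0.51, adjusted p = 0.0149). The second of the unnamed rises by the naming rule, 251625_at, was at 10.64 and 10.16 against 5.68 and 7.46 and rose by 3.83 (standard error 0.60, adjusted p = 0.0418). Its wild-type arrays were the furthest apart of these, and neither of the 2 passed with a trended and robust prior (adjusted p = 0.170 and 0.292). The largest fall, that of 263457_at, had tight groups at 3.88 and 3.65 against 6.32 and 6.18 (-2.49, standard error 0.13, adjusted p = 0.000872). 253073_at fell by 0.98.

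**Figure D5:**
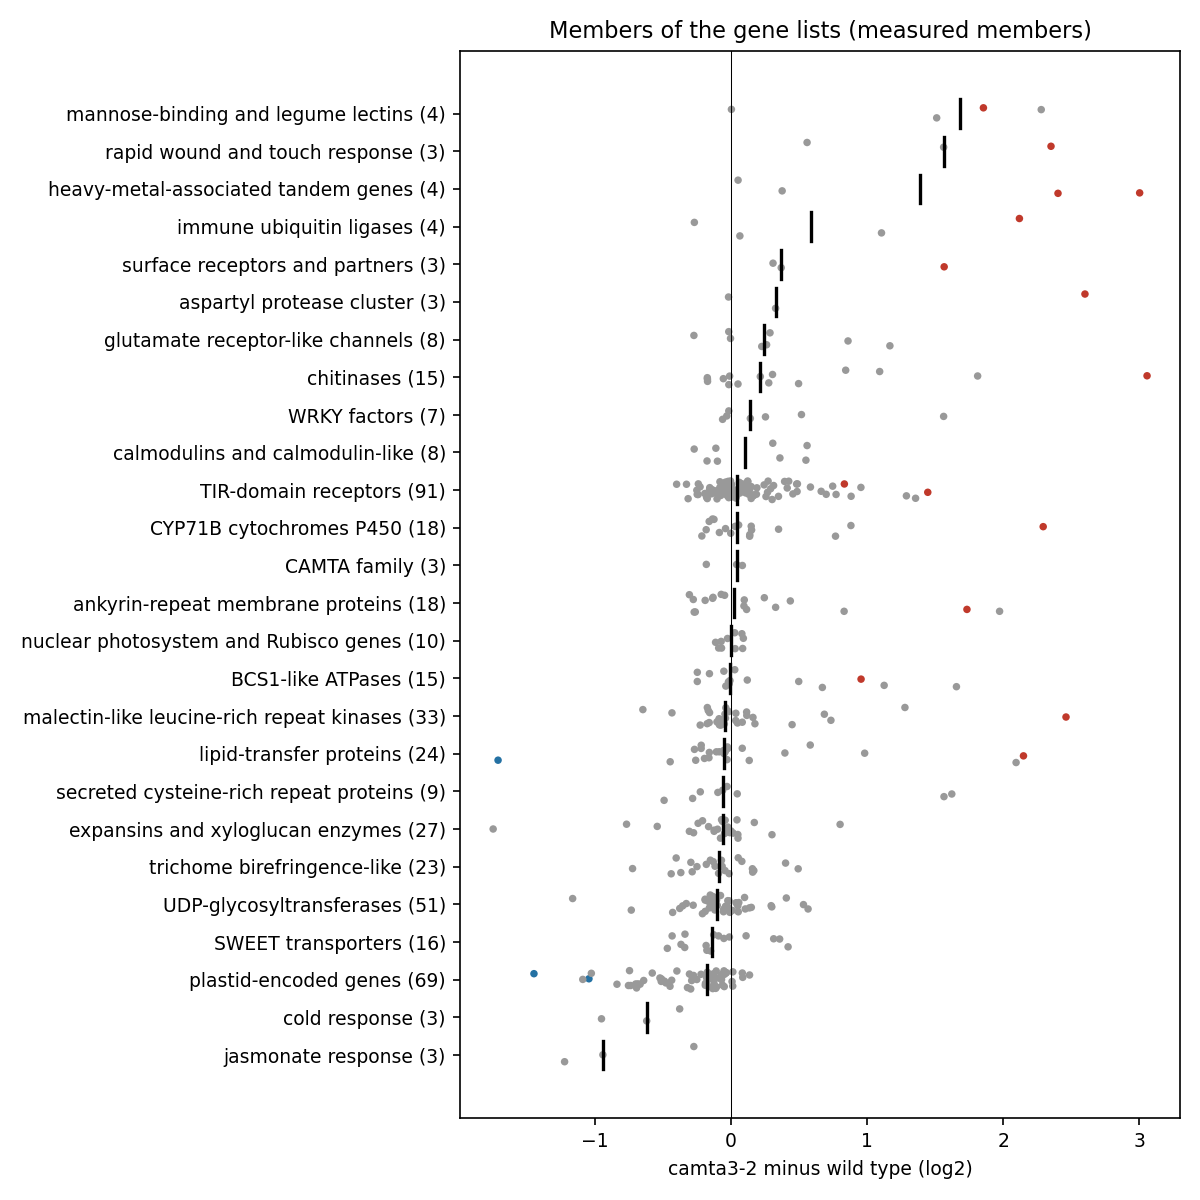
Log2 fold change of camta3-2 against wild type (horizontal axis) for the measured members of each gene list with at least 3 of them (number in brackets), with genes that rose in red, genes that fell in blue, the rest in grey and the median of each list as a black bar. In the TIR-domain list the median is 0.04 with 2 genes that rose, while the plastid-encoded genes have a median of -0.18 with 2 that fell.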

How the data were processed

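Total RNA was extracted with a column kit, copied into cDNA by the array maker's procedure and labelled with biotin, per the labels' protocols. The authors deposited 1 log2 expression value for each probe set on each array, obtained with RMA and Partek, per the submitters' processing notes, which give no versions. RMA makes the arrays' distributions alike, so a shift shared by all transcripts is removed, and it shrinks differences of dim probe sets.

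From the table of 22810 probe sets, 64 controls were left out and the other 22746 were tested without a filter. The platform annotation paired 13513 with 1 gene, 503 with several and 8730 with none. Symbols came from a RefSeq gene table (TAIR10.1), which matched 13436 and was used for names and gene order only. A gene was represented by its probe set with the highest mean.

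The fit was made in limma 3.58.1 (R 4.3.3): a linear model of all 6 arrays with a mean for each genotype, followed by contrasts and moderated tests (3 residual and 4.43 prior degrees of freedom). The Benjamini-Hochberg adjustment ran over all 22746 p-values, and 0.05 was the threshold. The test was also tried on simulated data. The named genes were the 15 largest rises and 10 largest falls among genes that passed without overlap, the CAMTA and heavy-metal-associated lists, up to 4 genes of each other list, the extremes between alleles, and 4 unnamed probe sets. The lists, several of them recalled without a curated table and incomplete, the members and the rule were chosen with earlier results of these data known. Alternatives were a replicate block, fits of 4 arrays, other scalings, filters, priors, weights and thresholds, and leaving out each array. Same-numbered camta3-2 and wild-type arrays correlated at 0.134 in their deviations from group means and those of the alleles at 0.402, and with 2 numbers these were not taken as pairs. The number of arrays limits the precision. Python 3.11.15 with matplotlib 3.10.9 drew the figures.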

Additional observations from a re-analysis of the deposited data

Results flagged for a closer look

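QQS was the only gene that passed the direct test between the mutant alleles in the fit of all 6 arrays. In other fits up to 19 probe sets passed, and none without moderation. Its level was higher in camta3-2 than in camta3-1 by 3.00 on the log2 scale (limma, adjusted p = 0.000836), with a rise of 2.57 against wild type in one allele and a difference of -0.43, which did not pass, in the other. Both camta3-2 arrays were above all 4 other arrays.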

How the results depend on the processing

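With 2 arrays a group, the count of calls moved with most choices. The 36 called genes and probe sets that the rule named kept their direction in every setting. Except under the other scalings, that was fixed in advance, because their camta3-2 arrays did not overlap the wild-type arrays. With a replicate block, which pairs same-numbered arrays, 280 probe sets passed (241 higher, 39 lower), all 167 of the reported ones among them. With only the 4 arrays compared, 270 passed (252 higher), and with these 4 and the replicate block 337 (299 higher, 38 lower), when 19 also passed between alleles. The unmoderated test called 0 in either direction and 0 between alleles, where 2042 and 1210 had an unadjusted p under 0.05. Among probe sets with 1 gene, 67 passed (52 higher). At least 2-fold, 7 were lower, and at an adjusted p under 0.01, 30 passed (28 higher, 2 lower). Other scalings, the filter on dim probe sets, the trended prior and array weights gave between 170 and 211. Leaving out 1 array gave 5 to 270 passing, 3 to 252 higher, 1 to 18 lower and 1 to 7 between alleles.

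The median of the plastid-encoded genes stayed negative throughout, from -0.31 to -0.10 over the arrays left out. Leaving out 1 array was unlikely to turn the sign, because both camta3-2 arrays had lower medians of these genes than both wild-type arrays. Of them 4 were lower with 4 arrays and the block, 5 with the trended prior and 0 without moderation, and these fits were chosen for the list after its values had been seen. Of the 36, CHI, 266385_at and 251625_at did not pass with the trended prior, AT2G14650 not with 4 arrays and the block (adjusted p = 0.0524), and 251625_at not with array weights (adjusted p = 0.0517).

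Of the 98 uncalled ones, 18 changed sign when 1 array was left out, and their log2 fold changes then ranged as follows. The CAMTA and defence genes were AT3G16940 from -0.41 to 0.042, AT1G67310 from -0.081 to 0.25, AT4G16150 from -0.12 to 0.20, BSMT1 from -0.0014 to 0.28, WRKY6 from -0.065 to 0.57, WRKY22 from -0.12 to 0.41, AT5G18370 from -0.11 to 0.11. The cold, jasmonate and senescence genes were COR47 from -0.82 to 0.067, PDF1.2 from -2.20 to 0.31, PDF1.2b from -1.07 to 0.53, SAG29 from -1.03 to 1.66. The others were CRT1b from -0.015 to 0.20, AT5G52770 from -0.068 to 0.17, LHCB4.2 from -0.20 to 0.014, LHCB4.3 from -0.017 to 0.19, AT4G34270 from -0.26 to 0.082, PYK10 from -0.73 to 0.21, AT5G03700 from -0.16 to 0.17. Under cyclic loess AT2G28390 turned to 0.0102 and AT3G51360 to 0.0347. Outside the left-out arrays, 23 uncalled ones passed under some alternative, among them AT5G59680, AT1G66090 and petD. The cause of these changes was not tested.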

Other observations

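Other defence-related families held few genes that passed. Of all represented genes 0.404% rose, 0.12% fell and 12.2% had both camta3-2 arrays above both wild-type arrays. Of 4 measured mannose-binding and legume lectin genes, whose median was 1.68, 3 had both camta3-2 arrays above both wild-type arrays and AT5G03350 passed, while AT5G18470 was at 6.82 and 6.50 in camta3-2 against 3.89 and 4.88 in wild type (difference 2.28, limma adjusted p = 0.106) and AT3G16530 at 9.59 and 9.08 against 7.81 and 7.83 (difference 1.51, adjusted p = 0.0902). Of 15 measured BCS1-like ATPase genes AT5G17760 rose by 0.96, and the median was -0.01. Among 9 measured secreted cysteine-rich repeat genes none passed, and AT5G48540 and AT3G22060 had differences of 1.62 and 1.56 (adjusted p = 0.100 and 0.115). Both measured nucleotide-binding receptors of a list of 16, AT4G12010 and AT5G18370, were uncalled at 0.49 and 0.00.

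For salicylic acid synthesis, pathogenesis-related proteins, immune MAP kinases, camalexin and heat shock, no listed gene was named by the annotation. The same held for mitochondrion-encoded genes and the flower and seed markers. The lists of calcium-dependent kinases, cyclic nucleotide-gated channels, wall-associated kinases and cysteine-rich receptor kinases were chosen by symbol, and no measured gene matched. Members that the annotation names only by locus can be missing from them, as with the wall-associated kinase-like gene AT1G69730. None of these lists was analysed here. In the following lists 1 or 2 genes were measured, and none of them passed. Of salicylic acid turnover, BSMT1 and UGT74F1 differed by 0.14 and -0.12. EIN3, the transcription factor of ethylene signalling, differed by 0.34, the chaperone gene CRT1b by 0.09 and the clock gene GI by 0.06. Both measured aliphatic glucosinolate genes were lower on average, with a median of -0.21. SAG29, a senescence gene, was at 7.79 and 5.10 in camta3-2 and at 7.06 and 5.20 in wild type, so that replicate 1 was high and replicate 2 low in both genotypes. The reference genes AT4G34270 and AT2G28390 differed by -0.09 and -0.04, the latter turning to 0.01 under cyclic loess scaling. AT1G66850, a lipid-transfer gene, was chosen after its values were seen: it was at 4.83 and 8.76 in camta3-2 against 5.20 and 4.20 in wild type, so that 1 array alone was high.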
